A study of Drosophila melanogaster with 2 samples.

Results

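In a chromatin immunoprecipitation sequencing (ChIP-seq) map of Ssrp-GFP in Drosophila embryos, 3958 of the 24555 weaker pooled peaks (16.1%) had their summit in protein-coding sequence, away from any transcription start site (TSS). A pooled peak was called weaker when the list that passed the irreproducible discovery rate (IDR, a check of whether a peak ranks alike in replicates) did not hold a peak with the same chromosome, start, end and summit. A weaker peak was counted as a coding exon peak when its summit lay in an annotated coding sequence (CDS) and over 500 bp from every TSS. The coding exon peaks made up 13.2% of all 30000 pooled peaks, beside 10310 weaker intronic, 5347 weaker promoter, 3069 weaker intergenic and 1871 weaker other exon peaks, while the 5445 IDR peaks held 10 summits of the same kind. A transgenic fly line made Ssrp with green fluorescent protein (GFP) on its C-terminal end, and an anti-GFP antibody brought it down. The labels state neither the promoter of the transgene nor whether untagged Ssrp was also present. The 2 samples were biological replicates of whole mixed-sex embryos aged 0 to 16 h and formed 1 group, with chromatin sheared by sonication and a labelled size range of 200 to 800. In whole embryos, binding in few cells and weak binding in many cells cannot be told apart. Control libraries were not analysed here, and the dependence of each peak on the tagged protein was not tested.

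Ssrp pairs with the Spt16 protein, encoded by dre4 in the fly, to form FACT, a histone chaperone. FACT loosens nucleosomes ahead of RNA and DNA polymerases and restores them behind, so it is known from yeast and animal cells to travel through the bodies of transcribed genes as well as to sit near their starts. Coding exons lie inside those bodies, are richer in G and C than the introns and spacers of the fly genome, and in many regulatory genes hold runs of CAG, a codon for glutamine.

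The sequences at the strongest coding exon summits found in both replicates ranged widely in base composition. Of the 9 coding exon peaks with the highest pooled signal among those matched in both replicate lists, 8 are shown, each as the summit base, in capitals, with 50 bases to either side on the coding strand of the host gene. They were read from the RefSeq copy of the dm6 assembly. Bka lay at chr2L:9895974-9896074, plus strand. Calr, which encodes the calcium-binding chaperone calreticulin, lay at chr3R:9629223-9629323, minus strand. CG10311 lay at chr3R:16351123-16351223, minus strand. The summit in l(2)gl, a tumour suppressor gene of cell polarity, lay at chr2L:11947-12047, minus strand. The summit in GATAd, a GATA-type zinc finger gene, lay at chr2L:10334484-10334584, plus strand. The summit in klar, which encodes a nuclear envelope protein that links nuclei to microtubule motors, lay at chr3L:435608-435708, minus strand. The summit in corto, which encodes a chromatin protein that partners with Polycomb and Trithorax group proteins, lay at chr3R:5085452-5085552, minus strand, and that in CG31368 lay at chr3R:11888459-11888559, plus strand. Their GC content ran from 36.6% in l(2)gl to 69.3% in corto, and the longest run of CAG or CTG triplets in any of them was 2.
Bka: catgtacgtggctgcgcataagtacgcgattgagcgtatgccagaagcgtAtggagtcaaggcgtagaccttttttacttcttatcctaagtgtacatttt
Calr: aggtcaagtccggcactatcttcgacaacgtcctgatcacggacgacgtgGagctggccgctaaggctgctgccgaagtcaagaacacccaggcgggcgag
CG10311: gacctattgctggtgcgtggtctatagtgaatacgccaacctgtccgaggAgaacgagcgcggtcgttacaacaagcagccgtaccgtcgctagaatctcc
l(2)gl: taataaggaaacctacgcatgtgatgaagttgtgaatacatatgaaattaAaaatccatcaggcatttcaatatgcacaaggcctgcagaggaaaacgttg
GATAd: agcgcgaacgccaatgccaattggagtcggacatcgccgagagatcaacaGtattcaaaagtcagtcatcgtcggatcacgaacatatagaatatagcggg
klar: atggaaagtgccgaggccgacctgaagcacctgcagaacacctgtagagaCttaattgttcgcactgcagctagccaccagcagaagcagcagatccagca
corto: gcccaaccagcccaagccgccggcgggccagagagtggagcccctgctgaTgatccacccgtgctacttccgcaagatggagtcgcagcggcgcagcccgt
CG31368: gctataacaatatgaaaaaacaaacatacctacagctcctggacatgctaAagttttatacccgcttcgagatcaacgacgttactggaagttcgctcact

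The second set shows the coding exon peaks with long CAG runs, since such runs are a known feature of fly regulatory genes, and 4 of them are shown with the longest run in capitals. The summit in ps, which encodes the splicing regulator pasilla, lay at chr3R:9441469-9441569, plus strand, over a run of 8 CAG triplets. Hr4, a nuclear receptor gene, lay at chrX:2003247-2003347, plus strand, with 7 triplets. CG2186 lay at chrX:10859230-10859330, plus strand, and fd3F, a forkhead transcription factor gene, lay at chrX:3809920-3810020, plus strand, also with 7 triplets each. In none of the 4 did both replicate lists hold a match.
ps: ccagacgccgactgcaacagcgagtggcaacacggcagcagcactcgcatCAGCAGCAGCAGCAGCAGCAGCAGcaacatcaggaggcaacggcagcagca
Hr4: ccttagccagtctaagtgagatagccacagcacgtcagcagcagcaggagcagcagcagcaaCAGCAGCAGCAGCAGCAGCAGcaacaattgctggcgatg
CG2186: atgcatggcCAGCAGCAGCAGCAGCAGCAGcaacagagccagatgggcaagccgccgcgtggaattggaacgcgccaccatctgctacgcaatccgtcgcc
fd3F: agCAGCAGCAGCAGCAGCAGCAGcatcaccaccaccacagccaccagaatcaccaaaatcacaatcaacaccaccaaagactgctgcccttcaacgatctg

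The coding exon peaks were chosen by their pooled signal, since the IDR list held the 5445 strongest pooled peaks, and their signal is given as a description only. It ran from 46.9 to 154 with a median of 59.1, where the medians were 71.6 in weaker promoter peaks, 67.4 in weaker intergenic, 65.8 in weaker intronic and 64.2 in weaker other exon peaks. The authors' peak caller set this signal, whose scale differs between lists, and it was used to rank peaks within a list only. The deposited −log10 of the q-value had a median of 0.503 (upper quartile 0.689) in the coding exon peaks, against 0.605 (1.01) in all weaker peaks. Of the coding exon peaks, 175 (4.42%) had a q-value of 0.05 or less. The same share of all weaker peaks is not given here, so this count is a description only. Just inside the limit stood the peaks of ATPsynbeta, Bka and Calr with signals of 154, 152 and 146, and the nearest IDR coding exon peaks outside it were those of l(3)mbn, Tom and CG11906 with 181, 176 and 175. At the TSS limit, 118 coding exon peaks lay at most 50 bp beyond it, and 95 weaker peaks with a summit in CDS lay less than 50 bp inside it. All 3958 peaks were 396 bp wide, and 1799 of them (45.5%) lay in CDS over their whole width.

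A minority of the coding exon peaks was found in both replicates. A match was a peak of a replicate list whose overlap covered at least 50% of each peak. Of the coding exon peaks, 1210 (30.6%, exact 95% interval 29.1 to 32.0) were matched in both replicate lists, against 42.5% of all weaker pooled peaks. Another 1549 (39.1%) were matched in replicate 1 only, against 30.9% of all weaker peaks, and 850 (21.5%) in replicate 2 only, against 20.3%. The remaining 349 (8.82%) had no match in either list, against 6.32% of all weaker peaks. Matches in both lists were also more frequent in each other class, at 48.6% of weaker promoter, 45.7% of weaker intergenic, 43.7% of weaker intronic and 37.8% of weaker other exon peaks. The pooled list draws on the reads of both replicates, so a match is no independent repeat of a pooled peak, and no test was made. The intervals cover counting error only, and the read depth of the replicates is unknown.

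Signal moved with this support. Coding exon peaks matched in both lists had a median pooled signal of 72.8, those matched in replicate 1 only 57.5, those in replicate 2 only 55.1, and those in neither 50.3. Within bands of pooled rank, a comparison chosen after seeing the data, 87.6% of the 210 coding exon peaks ranked 5446 to 10000 were matched in both lists, against 89.9% of all weaker peaks of that band. The shares were 67.1% against 65.3% at ranks 10001 to 15000, 36.9% against 37.5% at 15001 to 20000, 17.2% against 17.4% at 20001 to 25000, and 5.40% against 6.46% beyond. At equal rank the coding exon peaks and all weaker peaks thus lay within 3 percentage points of each other, in each of the 5 bands. The balance between the replicates differed more. In the highest band, 88.6% of the coding exon peaks had a match in replicate 2 (exact 95% interval 83.5 to 92.5), against 93.7% of all weaker peaks, and in the other 4 bands the share was 73.6%, 56.1%, 44.9% and 35.6%, against 77.1%, 60.4%, 48.2% and 37.4%. Weaker other exon peaks had 93.1%, 70.6%, 48.4%, 39.8% and 35.1% in replicate 2. Lower shares there beyond rank 10000 were thus not particular to coding exon peaks. In replicate 1 the shares of coding exon peaks were 99.0%, 93.2%, 78.9%, 65.3% and 46.7%, against 96.1%, 87.7%, 75.4%, 62.3% and 47.2%. Over all ranks, 69.7% of the coding exon peaks had a match in replicate 1 and 52.0% in replicate 2, whereas 73.3% and 62.8% of all weaker peaks did.

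**Figure D1:**
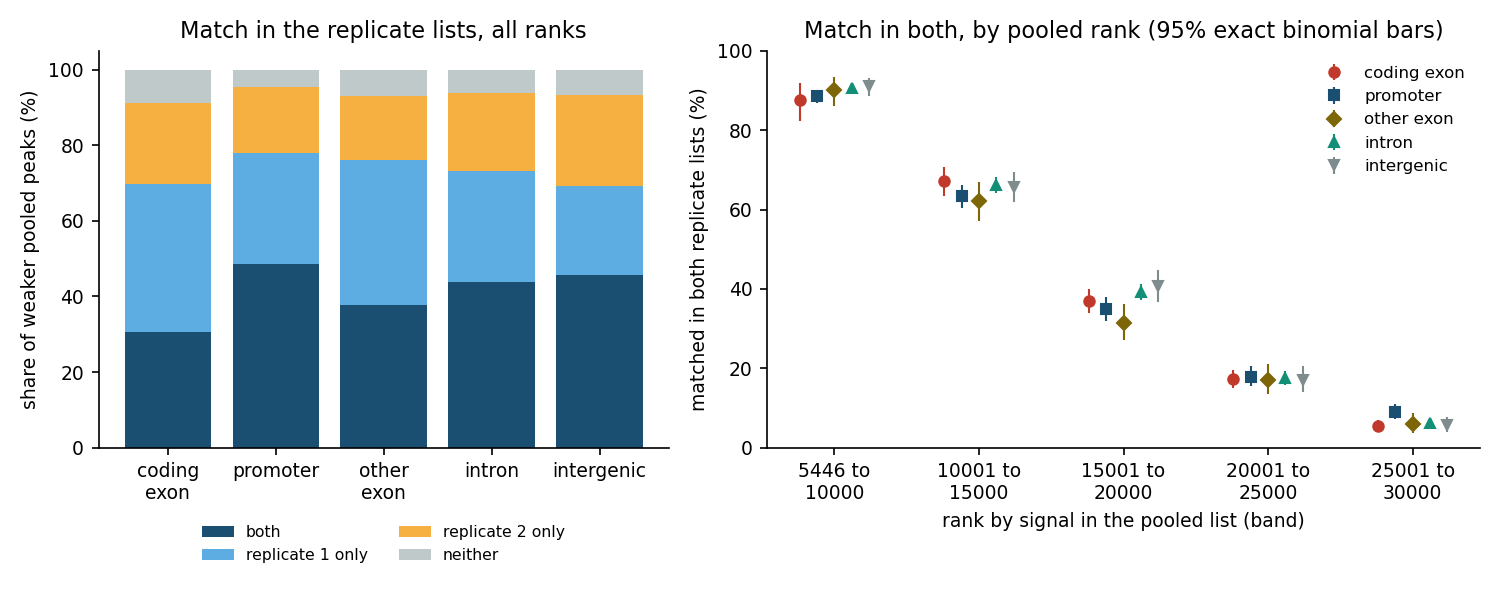
Left, the share of weaker pooled peaks (%) of each class matched in both replicate lists, in 1 only or in neither. Right, the share matched in both (%) by band of pooled rank, with exact 95% binomial bars. Coding exon peaks have the lowest share matched in both over all ranks (30.6%), while within bands the classes lie close together, with coding exon peaks at 87.6% in the first band and 5.40% in the last.

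The matching replicate peaks ranked low themselves. Matches in replicate 1 had a median rank of 17337, and 36 of 2759 were among its 5445 strongest peaks. Matches in replicate 2 had a median rank of 18118, and 1 of 2060 was that strong. No coding exon peak was among the 5445 strongest of both. The rule leaves out the 5445 strongest pooled peaks, and the pooled list draws on both replicates. Low ranks in the replicate lists thus follow in large part from the choice. The same counts over all weaker peaks are not given here, so these are no trait of coding exon peaks. Ranks in the 2 lists were weakly related across the 1210 peaks matched in both (Spearman rho 0.15, across peaks that share the pooled call, as a description), and the same value over weaker intronic peaks matched in both was 0.31. Some matches were shared: 66 coding exon peaks had a match in replicate 1 that another of them also had, and 84 did so in replicate 2.

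Each replicate list taken alone gave a similar number of coding exon peaks. Among the peaks ranked below the 5445 strongest, 4003 of replicate 1 (16.3%) and 3753 of replicate 2 (15.3%) had such a summit, a mean of 15.8% ± 0.720 (SD, n = 2). They fell in 2820 genes in replicate 1 and 2668 in replicate 2. Among the 5445 strongest peaks, 40 of replicate 1 and 4 of replicate 2 had a summit in a coding exon.

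The strongest coding exon peak lay in ATPsynbeta (FBgn0010217), which encodes the beta subunit of mitochondrial ATP synthase, on chromosome 4 from 1032825 to 1033220, in the second of 3 coding exons. It ranked 5571 in the pooled list and 3073 in replicate 1, and replicate 2 had no match for it. Bka (FBgn0010520), on 2L from 9895826 to 9896221, ranked 5630 in the pooled list, 3510 in replicate 1 and 14045 in replicate 2. The printed summit of Bka lay in its last coding exon, 13 bp from the edge of that exon. At Calr (FBgn0005585), on 3R from 9629075 to 9629470, the ranks were even, at 7946 in replicate 1 and 6466 in replicate 2, and a second peak with a signal of 93.0 lay in the same exon and was also matched in both. eEF5, the gene of a translation elongation factor, followed with a signal of 144 and ranks of 4751 in replicate 1 and 9685 in replicate 2. The other strong peaks mostly ranked higher in replicate 1. CG10311 ranked 4383 in replicate 1 and 13209 in replicate 2, and klar ranked 5129 in replicate 1 and 18229 in replicate 2. Of the 9 strongest peaks matched in both lists, Calr and corto ranked higher in replicate 2, and corto ranked 12264 in replicate 1 and 5587 in replicate 2.

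Ranks that were good in both replicates picked out a partly different group. By the worse of the 2 ranks, the best coding exon peak lay in CG17272 (FBgn0038830) on 3R from 20823399 to 20823794, with a signal of 109, rank 5422 in replicate 1 and rank 6703 in replicate 2. CG5989 came next, with ranks of 5329 in replicate 1 and 7141 in replicate 2. Ubr1, which encodes a ubiquitin ligase that reads the N-terminal residue of its targets, ranked 7220 in replicate 1 and 7062 in replicate 2, with its summit in the first of 10 coding exons. Calr was the fourth by this measure. E(spl)m7-HLH, which encodes a repressor induced by Notch signalling, was the fifth, with ranks of 8150 in replicate 1 and 7301 in replicate 2 in its only coding exon. The summits of CG17272, CG5989 and E(spl)m7-HLH lay 642, 649 and 632 bp from a TSS, close to the limit of 500 bp.

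The coding exon peaks were spread over many genes. They fell in 2752 of the 12417 protein-coding genes (22.2%) with eligible CDS, meaning CDS over 500 bp from every TSS, and 3 peaks lay in the CDS of more than 1 gene. Of these host genes, 1985 held 1 peak, 515 held 2, 210 held 3 to 4, and 42 held 5 or more, with 264 peaks among them. Host genes had a median of 1624 bp of eligible CDS, against 853 bp in genes without a coding exon peak. The share of genes with a peak was 6.81% where eligible CDS was under 500 bp and 47.2% where it was 4000 bp or more, while the number of peaks per kb ran the other way, at 0.282 and 0.161. The rate over all eligible genes was 0.212 coding exon peaks per kb, and 0.215 and 0.201 per kb in the lists of replicates 1 and 2.

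lola held the most coding exon peaks, 18 in 14600 bp of eligible CDS on chromosome 2R. It encodes a family of zinc finger transcription factors of axon growth, whose isoforms share their 5′ exons and differ in their last ones. Of its 18 summits, 15 lay in a last coding exon and 3 in an internal one, from 16.3% to 98.2% of the way along the gene. Their signals ran from 47.3 to 131. Support was mixed, with 7 matched in both replicate lists, 4 in replicate 1 only, 6 in replicate 2 only and 1 in neither. The replicate lists alone put 13 peaks (replicate 1) and 19 peaks (replicate 2) ranked below their 5445 strongest in the coding exons of lola.

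Regulators of chromatin and transcription stood beside genes of cell adhesion and muscle among the other long hosts. kis, the gene of a CHD-type chromatin remodeller, held 10 peaks, and 6 of them were matched in both replicate lists. spen, which encodes a large RNA-binding regulator of transcription, held 9, all in internal exons. osa, a subunit gene of the Brahma remodelling complex, and E(bx), the gene of the largest subunit of the remodeller NURF, held 8 each, of which 2 each were matched in both lists. Alh, a PHD finger gene, held 7. rhea, the talin gene, held 9 peaks between 56.1% and 97.7% of the gene, with 5 in both lists. pyd, which encodes a cell junction scaffold of the ZO-1 family, held 8, and all 8 were matched in both lists, with signals from 52.0 to 117. This was the only gene of the 15 with the most peaks in which every peak had that support.

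The other genes among the 15 with the most peaks were of mixed function. Tm1, a tropomyosin gene, held 7 with 4 in both lists, and Mhc, the muscle myosin heavy chain gene, held 7, all in internal exons, with 2 in both. Ten-m, a teneurin gene, held 7 with 3 in both lists, klar held 7 with 4, and atos held 7 with 1. Neurl4 held 6 peaks, of which 5 were matched in replicate 1 only and 1 in neither, and the list of replicate 2 had none in its coding exons. CG7029 also held 6, of which 4 were matched in both lists and 2 in replicate 2 only. The genes of FACT itself had no coding exon peak: Ssrp had 0 in 1694 bp of eligible CDS and dre4 had 0 in 3193 bp, with 1 coding exon peak of dre4 in the list of replicate 2.

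Among genes with 3 or more coding exon peaks, the 10 with the most per kb had 921 to 1420 bp of eligible CDS. Shc, the gene of an adaptor for receptor tyrosine kinases, held 4 in 921 bp of eligible CDS, or 4.34 per kb, all in its last coding exon, with 1 matched in both lists. Its neighbouring summits lay less than a peak width apart, so these 4 peaks overlapped each other in part. r-l, a gene of pyrimidine synthesis, had 2.63 per kb. how, the gene of an RNA-binding protein needed in muscle and tendon, and Kap-alpha3, an importin alpha gene, both had 2.30 per kb, and all 3 peaks of how were matched in both lists with signals of 99.7, 96.6 and 83.1. stg, the fly Cdc25 phosphatase gene that times embryonic mitoses, had 3 peaks (2.17 per kb) with 2 in both lists, while none of the 3 peaks of Diap1, which encodes an inhibitor of cell death, had a match in both. Tudor-SN, Cyp301a1, Unc-76 and vig, with 3 peaks each, had 2.11 to 2.29 per kb.

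**Figure D2:**
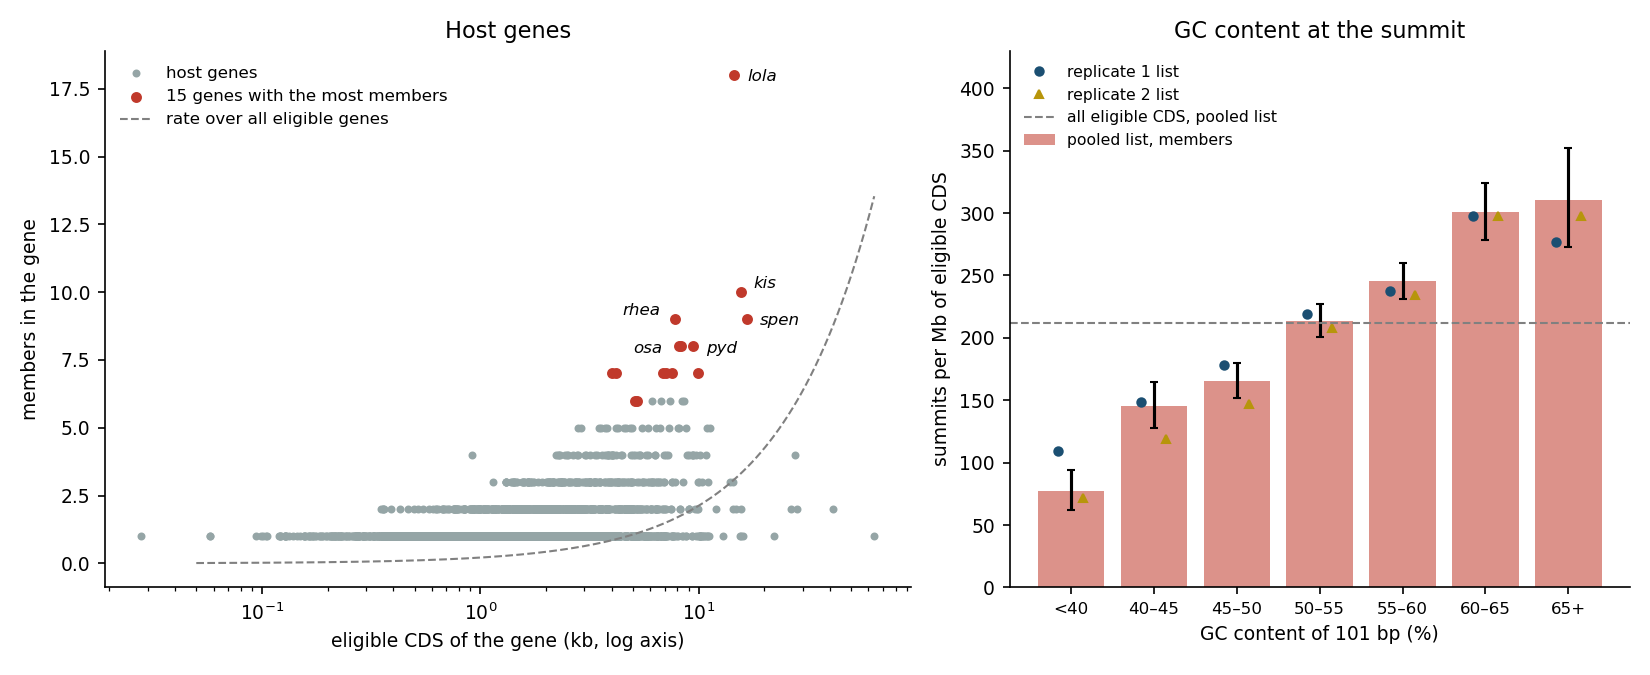
Left, coding exon peaks per host gene against the eligible CDS of the gene (kb, log axis), with the 15 genes with the most peaks in red and the rate over all eligible genes as a dashed line. Right, summits per Mb of eligible CDS by GC content at the summit (%), with exact 95% Poisson bars for the pooled list and points for each replicate list. lola stands apart with 18 peaks, and in the pooled list the density climbs with GC content from 77.1 to 311 per Mb.

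Genes of the translation and protein folding machinery had the highest peak rates among 18 gene lists. The lists were chosen with earlier results of these data known, and together they held 456 genes with eligible CDS, of which 180 (39.5%) were hosts. Cytosolic ribosomal protein genes had 1.10 coding exon peaks per kb (12 peaks, exact 95% Poisson interval 0.566 to 1.91) and were hosts in 11 of 31 cases, against 22.2% of all eligible genes. Each replicate list alone also gave 12 peaks in them. RpS3A held 2 of the peaks, 1 matched in each replicate only, and the peak of RpS6 was matched in replicate 1 only. Of the 31 genes, 21 also had an IDR summit within 500 bp of a TSS. These are short genes, and 10.9 kb of their CDS was eligible. All genes with under 500 bp of eligible CDS had 0.282 peaks per kb, more than the 0.212 of all genes and below the interval of ribosomal protein genes.

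Chaperone genes followed with 0.612 per kb and 12 hosts of 23. Hsp83, the fly Hsp90 gene, held 2 peaks, both matched in both lists, the stronger with a signal of 95.5, and CCT3, the gene of a subunit of the cytosolic chaperonin, also held 2 matched in both. Hsc70-4, a constitutive Hsp70 gene, held 3, of which 2 were matched in both lists. Translation factor and aminoacyl-tRNA synthetase genes had 0.453 per kb and 15 hosts of 22. eIF5B, which encodes an initiation factor, held 3 peaks with 1 in both lists, and pAbp, the poly(A)-binding protein gene, and eEF2, an elongation factor gene, held 3 each with none in both.

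Chromatin regulator genes, with lola, kis and osa in front, had 0.393 per kb and 20 hosts of 36. Their 75 peaks were the most of any list, and 29 of them were matched in both replicate lists. Of the 75, 18 lay in lola, described above as a transcription factor gene. A rate of this list without lola is not given here. Genes of DNA replication and the cell cycle had 0.350 per kb and 16 hosts of 32, with stg and Top2, the topoisomerase II gene, at 3 peaks each and the cohesin gene SMC1 at 2. Glutamine-rich and patterning regulators had 0.338 per kb and 12 hosts of 36, among them kis, osa and MED15, a Mediator subunit gene with 2 peaks in the pooled list and 0 in that of replicate 2. Transcription elongation genes had 0.293 per kb and 9 hosts of 21. Among these, Spt6, the gene of another histone chaperone of elongating polymerase, held 4 peaks, and Polr2A, which encodes the largest subunit of RNA polymerase II, and Nelf-A, the gene of a pausing factor subunit, held 3 each. Of those 10 peaks, 1 was matched in both lists, in Nelf-A.

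Matrix, signalling and axon guidance genes lay closer to the rate of all genes. Basement membrane and matrix genes had 0.285 per kb and the highest share of hosts, 14 of 18 genes, in 109 kb of eligible CDS. Over all eligible genes 22.2% were hosts, and 47.2% of those with 4000 bp or more of eligible CDS. Ten-m, a teneurin gene that also stood in the axon guidance list, held 7 of the 31 peaks of the matrix list. The laminin genes LanA and LanB1 held 5 and 4. Core signalling genes had 0.279 per kb, with Egfr, the EGF receptor gene, at 4 peaks, and InR, the insulin receptor gene, and mam, a Notch coactivator gene, at 3 each. Axon guidance genes had 0.240 per kb, with sli, which encodes the guidance cue Slit, at 4 and its receptor gene robo1 at 3. Glycolysis and central metabolism genes had 0.206 per kb and 7 hosts of 25, with 2 peaks each in mAcon1, the mitochondrial aconitase gene, and kdn, the citrate synthase gene.

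Several lists of genes with long coding sequences lay below the rate of all genes in the pooled list. Cadherin and EGF-repeat receptor genes had 0.169 per kb, although 13 of 20 were hosts, with N, the Notch gene, at 5 peaks and arr, a Wnt coreceptor gene, at 4. None of the 4 peaks of arr was matched in both replicate lists, and the list of replicate 2 had 0 peaks in its coding exons. Genes of cytoskeletal giants and motors had 0.167 per kb, with rhea at 9 peaks and 4 each in alpha-Spec, the alpha-spectrin gene, and shot, the spectraplakin gene, the last in 27793 bp of eligible CDS. Nuclear pore and transport genes had 0.154 per kb. Muscle and sarcomere genes had 0.133 per kb with 12 hosts of 23, where Tm1 and Mhc together held 14 of the 30 peaks. The exact Poisson interval of muscle genes (0.0899 to 0.190 per kb) lay below the 0.212 of all genes. The same interval covered the 0.161 per kb of genes with 4000 bp or more of eligible CDS. The muscle list held 225 kb of eligible CDS in 23 genes, and a comparison with genes of like length was not tested. The intervals of cadherin (0.113 to 0.243), cytoskeletal (0.114 to 0.237) and nuclear pore genes (0.0738 to 0.283) covered the 0.212 of all genes. A lower rate was thus not resolved in these lists. All these intervals treat peaks as independent, which neighbouring peaks of a gene are not.

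Genes that serve mainly outside the embryo had few coding exon peaks in the pooled list. Chemoreceptor genes had 1 host of 40, Gr63a, a carbon dioxide receptor gene, whose peak was matched in replicate 1 only. The count depended on the list: this 1 pooled peak made 0.0273 per kb, against 6 peaks (0.164 per kb) in the list of replicate 1 and 2 peaks (0.0547 per kb) in that of replicate 2. Male germline genes had 2 hosts of 22, topi and betaTub85D, with 2 peaks in the pooled list, 1 in that of replicate 1 and 4 in that of replicate 2. The 3 male germline genes on the Y chromosome held 39.8 kb of that eligible CDS and no peak, and without them the rate was 0.114 per kb in place of 0.0348. Cuticle, chorion and yolk genes had 0 peaks in 23 genes and 14.4 kb, where the exact 95% Poisson interval of a count of 0 reached 0.256 per kb, above the 0.212 of all genes, so that a rate below that of all genes was not detectable in this list. RNA levels of the genes were not measured here.

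**Figure D3:**
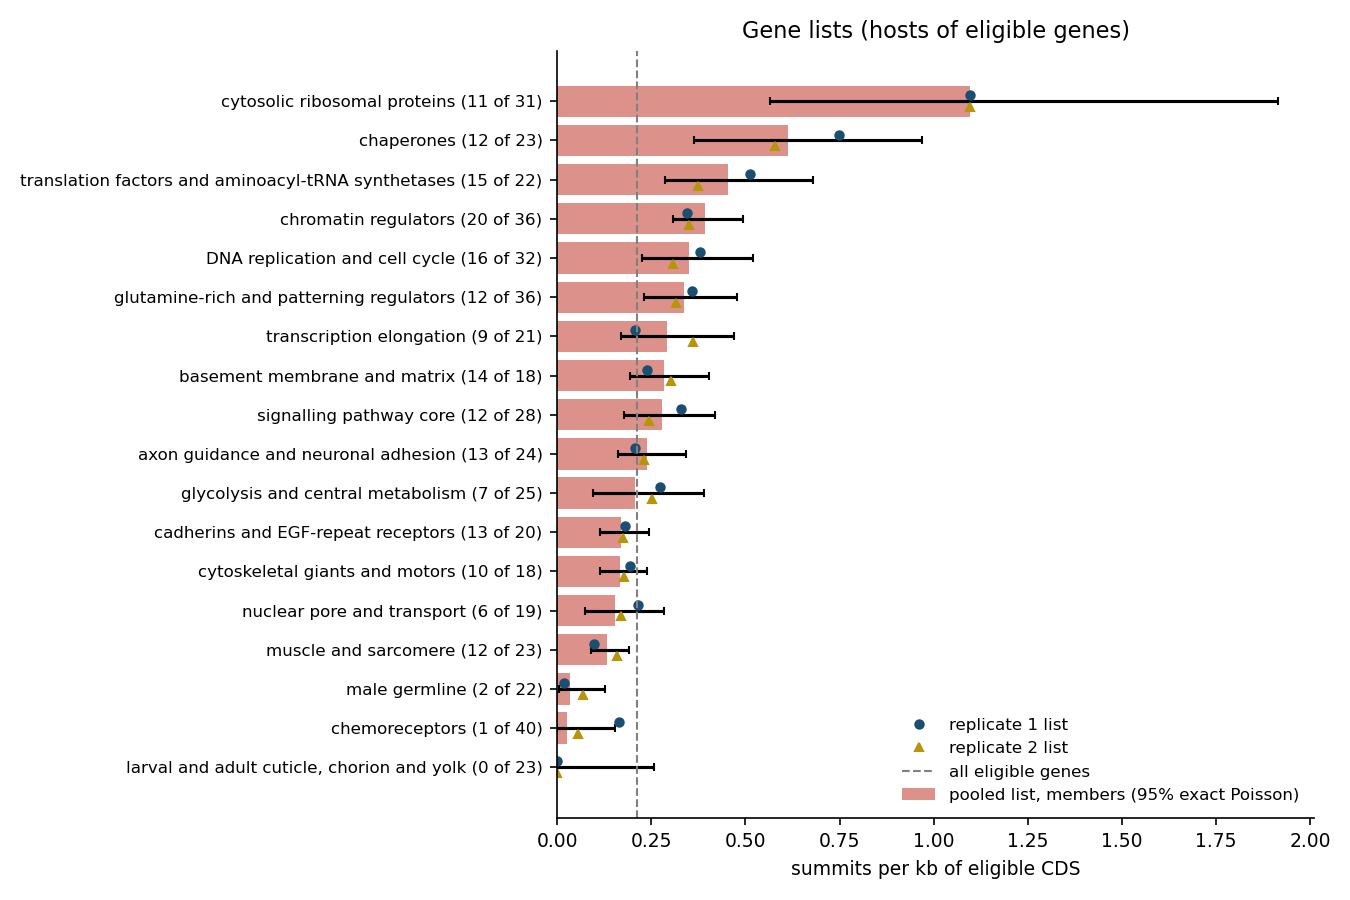
Coding exon peaks per kb of eligible CDS in 18 gene lists, with host and eligible gene numbers in brackets, exact 95% Poisson bars for the pooled list, points for each replicate list and a dashed line at the rate of all eligible genes. Ribosomal protein, chaperone and translation genes lie at the top with 1.10, 0.612 and 0.453 per kb, and cuticle, chorion and yolk genes at the bottom with 0.

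The order of the lists was set beside GC content, the replicates and a stricter limit on signal. In all, 7 lists lay above the rate of all genes in the pooled list, in each replicate list, in the stronger part of the weaker peaks and among positions of 50 to 60% GC, a band chosen after seeing the data. These were ribosomal proteins, chaperones, translation, chromatin regulators, glutamine-rich regulators, signalling and matrix. kis and osa, with 10 and 8 of the 32 peaks of the glutamine-rich list, also stood in the chromatin list. A rate of the glutamine-rich list without these genes was not computed. The exact 95% Poisson intervals of signalling (0.177 to 0.419 per kb) and matrix (0.194 to 0.404) covered the 0.212 of all genes. The settings share reads and are not independent of each other. Muscle and cadherin genes lay below the rate of all genes in all of these settings. In the pooled list the exact Poisson interval of cadherin genes (0.113 to 0.243 per kb) covered that rate. The interval of muscle genes lay below that rate but covered the 0.161 per kb of genes with 4000 bp or more of eligible CDS. Another 6 lists lay on both sides of the rate of all genes: nuclear pore, cytoskeletal, axon guidance, transcription elongation, glycolysis and DNA replication genes. Elongation genes had 0.962 times the rate of all genes in replicate 1. DNA replication genes had 0.808 times it in the stronger part of the weaker peaks. Chemoreceptor, male germline and cuticle genes were never above the rate of all genes, but had 0 peaks at 50 to 60% GC, in 13.7, 7.58 and 4.95 kb of eligible CDS. The male germline rates in these settings include the 39.8 kb on the Y chromosome, which held no peak. Rates without that part were computed for the pooled list only, so the place of male germline genes off Y in the replicate lists is not known. Ribosomal protein genes had 5.17 times the rate of all genes over all positions and 3.39 times it at 50 to 60% GC, the last from 4 peaks in 5.15 kb, and matrix genes lay at 1.00 times it in that band.

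Genes with an IDR summit within 500 bp of a TSS were hosts more often. Of the 2556 such genes, 891 (34.9%, exact 95% interval 33.0 to 36.7) held a coding exon peak, against 1861 of 9861 genes without one (18.9%). The rate per kb was 0.292 against 0.186 in the pooled list, 0.300 against 0.186 in replicate 1 and 0.272 against 0.178 in replicate 2. Such genes also had more eligible CDS, a median of 1232 bp against 953 bp. The difference stood in each of the 5 length classes. Host genes had an IDR promoter in 25.4% of cases against 13.7% of other genes where eligible CDS was under 500 bp, and in 35.5% against 23.6% where it was 4000 bp or more. Coding exon peaks also lay nearer to IDR summits of any class, at a median of 4631 bp, against 8570 bp for all eligible CDS positions, and 5.66% against 3.44% lay within 1000 bp of one.

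Coding exon peaks lay deep in genes for the most part, as eligible CDS does. Their median position was 65.9% of the way from the most 5′ start to the end of the host gene, and that of all eligible CDS positions, taken at even steps, was 65.6%. The median distance from the gene start was 2512 bp, against 3324 bp for eligible CDS. Per Mb of eligible CDS, peaks were densest in the first 10% of the gene, at 281 (exact 95% Poisson interval 223 to 350.3), and least dense between 30 and 40%, at 194, with 225 in the last 10%. Over all eligible CDS the density was 212 per Mb. The TSS distance that the rule demands takes away much of the first 10%, which held 1.51% of eligible CDS and 79 peaks.

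Along the coding sequence itself the density was higher at both ends than in the middle. It was 248 per Mb in the first 10% (exact 95% Poisson interval 218 to 281), 177 between 40 and 50% (159 to 197) and 245 in the last 10% (224 to 267). Replicate 1 alone gave 243, 195 and 243 per Mb at these places, and replicate 2 gave 283, 178 and 222. At 50 to 60% GC the values were 249, 199 and 262 per Mb.

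**Figure D4:**
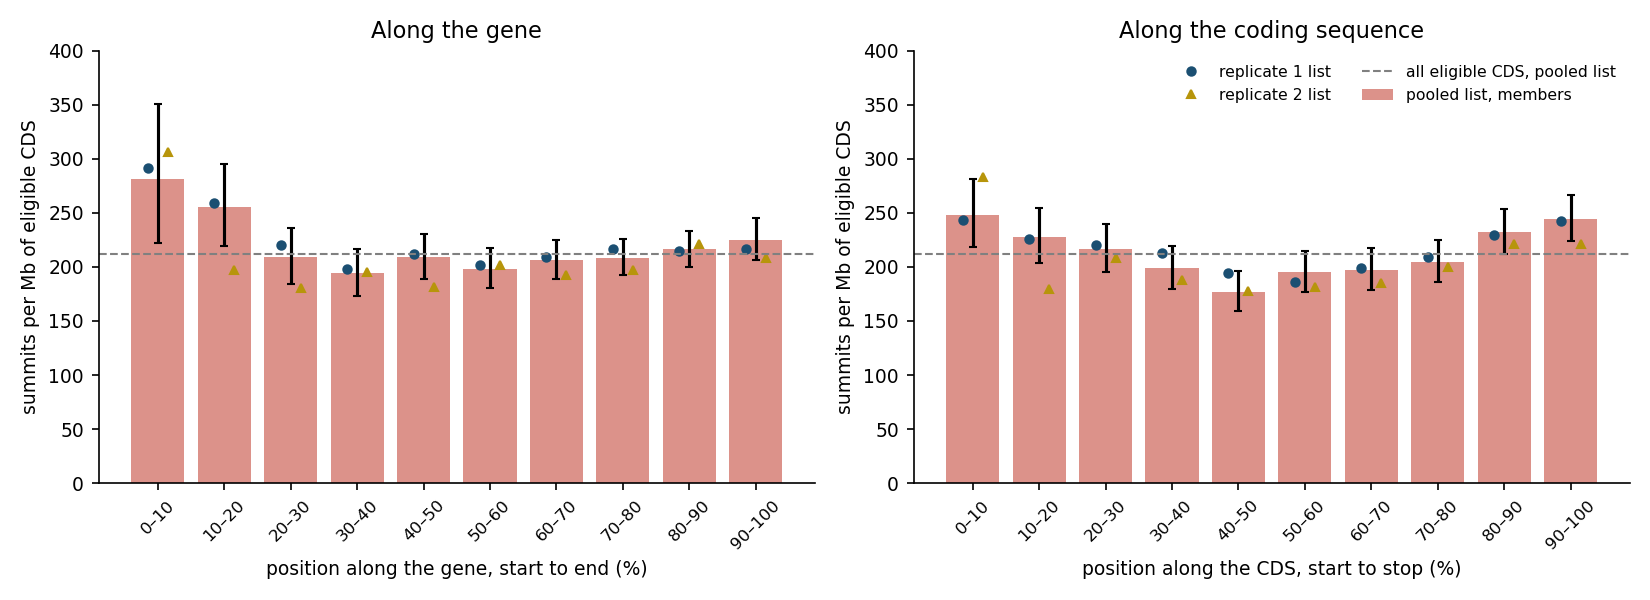
Summits per Mb of eligible CDS by position (%) along the gene (left) and along the coding sequence (right), with exact 95% Poisson bars for the pooled list, points for each replicate list and a dashed line at 212 per Mb over all eligible CDS. Both panels are highest in the first 10%, at 281 and 248 per Mb, and the right panel has its lowest value, 177, between 40 and 50%.

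Distance from a TSS was part of the rule only up to its limit, and density changed beyond it. It was 249.9 per Mb at 500 to 1000 bp from the nearest TSS, 253 at 1000 to 2000 bp, 226 at 2000 to 3000 bp, 161 at 3000 to 5000 bp, 152 at 5000 to 10000 bp and 88.1 beyond. Replicate 1 ran from 259.9 in the nearest class to 84.9 in the farthest, and replicate 2 from 224 to 94.6. The same order of the 6 classes held at 50 to 60% GC, from 264 in the nearest to 104 in the farthest.

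Peaks were also sparser in transcripts with many coding exons. The density was 249 per Mb with 1 coding exon, 270.5 with 2, 263 with 3 to 4, 217 with 5 to 8, 161 with 9 to 16 and 65.7 with 17 or more. Internal coding exons held 1890 peaks (178 per Mb), against 469 in first (263 per Mb), 1222 in last (257 per Mb) and 377 in single coding exons (249 per Mb). Last coding exons thus held 30.9% of the coding exon peaks and 25.4% of eligible CDS, while internal ones held 47.8% and 56.9%. The share in last exons was 30.0% in replicate 1 and 28.8% in replicate 2. Position, exon number and gene length go together, and their separate parts in the density were not tested.

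**Figure D5:**
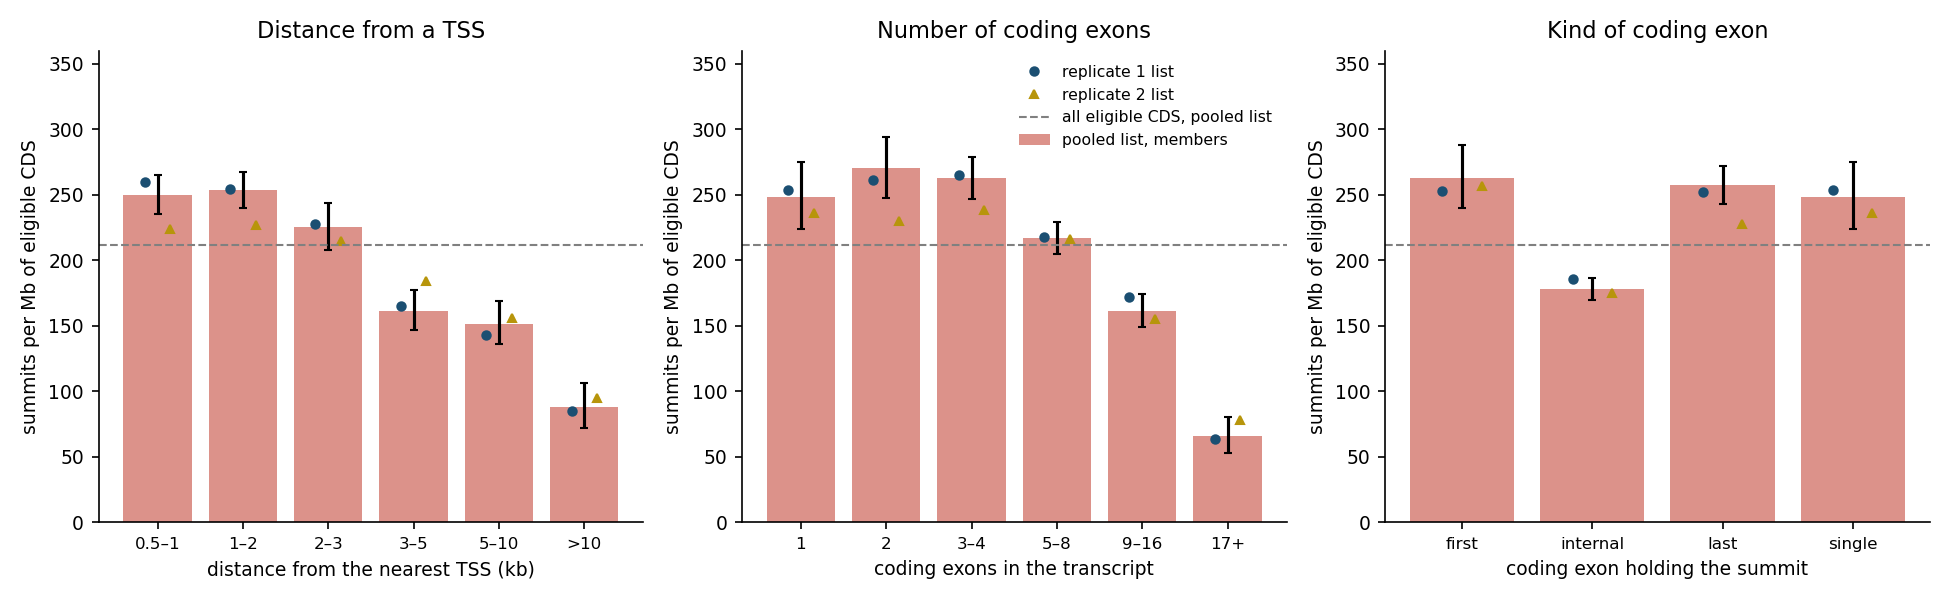
Summits per Mb of eligible CDS by distance from the nearest TSS (kb), by the number of coding exons in the transcript and by the kind of coding exon, with exact 95% Poisson bars for the pooled list, points for each replicate list and a dashed line at 212 per Mb over all eligible CDS. Density is lowest beyond 10 kb (88.1), with 17 or more coding exons (65.7) and in internal exons (178).

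Chromosomes differed in density. Per Mb of eligible CDS there were 267 peaks on 2R, 226 on 3R, 217 on 3L, 187 on 2L, 170.2 on X and 47.0 on chromosome 4, where 12 peaks lay. Replicate 1 gave 260.3 on 2R and 170.2 on X, and replicate 2 gave 237 on 2R and 160.3 on X. No coding exon peak lay on Y. Among the chromosomes with a peak, 4 had the lowest GC content in its eligible CDS, a median of 40.6%, against 53.5% over all eligible CDS, and at 50 to 60% GC its rate was 174 per Mb from 4 peaks.

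GC content at the summit was above that of coding sequence as a whole. The windows at the summits of coding exon peaks, of the size printed above, had a median of 55.4% GC (quartiles 50.5 and 59.4), against 53.5% in eligible CDS (47.5 and 58.4). Windows 600 bp to either side of the summit averaged 47.5% GC in coding exon peaks and 46.7% in eligible CDS. In the pooled list density climbed with GC content, from 77.1 peaks per Mb under 40% to 213 at 50 to 55%, 245 at 55 to 60%, 301 at 60 to 65% and 311 at 65% or more. Replicate 1 ran from 109.6 to 276 between the same outer classes and replicate 2 from 71.4 to 298. Both replicate lists had 298 at 60 to 65%, so neither rose in the last step. The other weaker classes had lower medians, 39.6% in promoter, 38.6% in intronic and 36.6% in other exon and intergenic peaks, and the IDR peaks had 28.7%. The part of GC-dependent shearing, amplification and sequencing in these values was not tested.

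Runs of CAG lay at a small share of the coding exon summits, slightly above the share in coding sequence at large. For the longer runs, with few such peaks, the exact intervals covered the share of coding sequence. At least 4 CAG or CTG triplets in a row, which are the same repeat on opposite strands, lay within the same windows of 50 coding exon peaks (1.26%, exact 95% interval 0.939 to 1.66). The share was 1.05% over 184784 eligible CDS positions, which is inside that interval, and 0.175% in weaker intronic peaks. In replicate 1 the share was 1.20% and in replicate 2 it was 1.73%, both above the 1.05% of eligible CDS. For at least 3 triplets it was 3.39% of the coding exon peaks, with a lower bound of 2.84% (exact 95% interval), against 2.83% of eligible CDS positions, just below that bound. For at least 6 triplets it was 0.303% (exact 95% interval 0.157 to 0.529), against 0.225% of eligible CDS positions, inside that interval. The longest run, 10 triplets, lay in dom, the gene of a Swi2/Snf2-type remodeller that exchanges histone variants, and was matched in replicate 2 only. sqa, a kinase gene, and ps had runs of 8. Hr4 held 2 of the peaks with 7 triplets, and pnt, an ETS factor gene, repo, a homeobox gene of glia, CG12054, msn, a kinase gene, and mam had 6 each. Of these 12 peaks, 3 were matched in both replicate lists, in Hr4, repo and CG12054.

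The coding exon peaks were seldom repeats in the genome and often close to each other. The 31 bases at the summit occurred once in the assembled chromosomes for 3949 peaks and more than once for 9, among them kis with 4 copies and RAF2 with 3. The median distance to the nearest other coding exon peak was 2552 bp, and 1104 peaks (27.9%) had another within 1000 bp. Of all coding exon peaks, 477 (12.1%) overlapped another, so that neighbouring peaks of a gene are not independent of each other. The summit was coding in every coding transcript of the host for 87.0% of them, against 85.8% of eligible CDS positions.

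The 10 coding exon summits in the IDR list give the nearest stronger set. They lay in otp, Pde1c, klar, CG4456, HisRS, CYLD, HmgD, l(3)mbn, Tom and CG11906, with signals of 621 down to 175. Matches in both replicate lists were found for 7 of them, and in replicate 1 only for 3, in klar, l(3)mbn and CG11906. otp, a homeobox gene, Pde1c, a phosphodiesterase gene, and HmgD, the gene of an HMG-box chromatin protein, had the summit in the last 6% of the gene. klar was the only gene of the 10 that was also among the 15 with the most weaker coding exon peaks.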

How the data were processed

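Ssrp-GFP ChIP-seq peaks of 2 biological replicates were analysed from 4 deposited lists on dm6. Per the text the authors deposited with the samples, each replicate list was derived from the alignment of that replicate and 1 further alignment shared by all, the pooled list from both alignments with the shared one, and the IDR list from the replicate and pooled lists. The sources used here name no aligner, caller or IDR threshold and do not say what the shared file held. The deposited peak signal is the authors' caller's own value, never negative, and the authors' −log10 of the q-value was capped at 3.85 in the pooled list. In the deposited p-value field every entry was −1, the mark for none. The replicate and pooled lists held 30000 peaks each, and read depth is unknown.

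Summits (5 pooled ones fell beyond their peak and were moved to its closest end; 0 belonged to a coding exon peak) were placed on the Ensembl annotation of dm6, without transposable elements, and sequence came from RefSeq. For positions, the summit's transcript was the one with the longest CDS among those coding there. Intervals are exact binomial (Clopper-Pearson) or Poisson at 95%. No comparison between groups was possible and no p-value was computed. Named genes were the 15 with the most peaks, the hosts of the 15 strongest peaks, the 10 densest with at least 3, up to 3 per gene list (1 is not reported here), the hosts of the 5 best worse-ranked peaks, the peaks at the limits, and Ssrp and dre4; the 10 IDR hosts and the long CAG runs were added after their values were seen. The 18 lists held 508 symbols, of which 497 matched a gene. Members, lists and rules were chosen with earlier results of these data known. Alternatives varied the TSS distance, match rule, signal limit, windows, gene model and replicate list. The scripts were tested on simulated data and used Python 3.11.15, numpy 2.4.6, pandas 2.3.3, scipy 1.17.1 and matplotlib 3.10.9.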

Additional observations from a re-analysis of the deposited data

How the results depend on the processing

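Of 49 alternatives to the summary values, 27 stayed within 1.5 times a count or within 1 SD of the replicates. With only the stronger 50% of the weaker peaks, the coding exon peaks numbered 1347 in 1122 host genes, 63.3% were matched in both lists, the median position was 64.9%, last exons held 32.7% and 18.4% of listed genes were hosts. The share matched in both was 41.4% with a 1 bp overlap, 21.9% with summits within 100 bp, 20.8% with an overlap of 75% of each peak and 4.88% in the strongest 15000 of each replicate list. The median position was 63.3% at 250 bp and 70.2% at 1000 bp from every TSS, and last exons held 29.8% at 250 bp. Median GC was 54.7% in a window of 100 bases to each side. The CAG share was 3.39% for at least 3 triplets (2.83% of eligible CDS), 0.303% for at least 6 (0.225%) and 2.30% in the wider window. Without 1 replicate, the last exon share was 28.8 to 30.0%, median GC 54.5 to 55.4%, the CAG share 1.20 to 1.73% and the listed hosts 39.0 to 42.1%; the share matched in both needs both replicates. The causes were not tested. Of 375 counts of named genes under an alternative, 253 stayed within 1.5 times. No paired analysis was possible because there is only 1 group. Unknown read depth limits all values, and pooled peaks without a match cannot be told from peaks below the length limit of the lists. The rank and GC bands were added after seeing the data.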
